A study of Mus musculus with 5 samples.

Results

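Transcript levels of 46 genes that license and copy DNA were examined in mouse pancreatic cancer cells with high and low autophagy flux. The genes were taken by symbol from a table of 52459 gene rows, and 46 of 46 symbols were found. They encode the MCM2-7 helicase, other MCM proteins, the origin recognition complex (ORC), helicase loaders and their inhibitor, CDC45 and GINS, the DDK kinase, the PCNA clamp and its loader, the RPA single-strand binding complex, DNA polymerases, Okazaki fragment enzymes and fork protection factors, in 12 groups. Replication starts when ORC, CDC6 and CDT1 load MCM2-7 rings onto DNA in G1 phase, a step called licensing. In S phase, DDK and cyclin-dependent kinases turn these rings into active CMG helicases with CDC45 and GINS, and polymerases follow the opened fork. Cells that leave the cycle are known to lose much of this machinery, and many of its genes are known targets of E2F transcription factors.

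The cells derive from the mouse pancreatic cancer line HY15549, with a C57BL/6 strain background, and carry GFP-LC3-RFP, a reporter of autophagy flux. Organoids were cultured in Matrigel with serum, dissociated and sorted by the GFP to RFP ratio. The autophagy-high group (AThi) had 2 libraries and the autophagy-low group (ATlo) had 3 libraries, and both groups carry the same reporter, receive no other treatment in the labels and come from 1 line. The series calls its samples biological replicates, but no label says whether each one is a culture of its own, and the tests compare only these libraries.

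Values are FPKM, fragments per kilobase of gene length scaled to library depth. The depth implied by the smallest steps of the values was 27580000 to 44940000 reads per library. At that depth 3 reads on 1 kilobase of exon are worth 0.0668 to 0.109 FPKM, which covers counting error only. Of 8 epithelial markers, 7 had a mean of at least 1 FPKM, with a summed level of 3582 and 4246 FPKM in AThi and 3830 to 4510 FPKM in ATlo. Within this list Krt7 fell, at 71.21 and 83.48 FPKM in AThi and 112.97 to 130.96 FPKM in ATlo, and Sox9, a ductal transcription factor gene, rose, at 34.06 and 39.77 FPKM against 15.68 to 20.41 FPKM. Cldn4 was at most at 0.15 FPKM. Of 25 markers of endocrine, acinar, endothelial, fibroblast or immune cells, 23 stayed under 0.4 FPKM in the 5 libraries and 11 were listed at 0 in each. The exceptions were the acinar-list gene Cela1 and Cd68, a lysosomal protein gene used as a macrophage marker, which was at 8.68 and 14.74 FPKM in AThi and 4.31 to 4.55 FPKM in ATlo, while Ptprc stayed at or under 0.05 FPKM. The summed level of 12 immediate-early genes, which respond to cell handling, was 3522 and 5535 FPKM in AThi and 1103 to 1816 FPKM in ATlo, and 12 of 12 rose. Mitochondrially encoded genes held 10.0 and 7.51% of the summed FPKM in AThi and 5.53 to 5.98% in ATlo. The part of these differences in the results below was not tested.

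The comparison of AThi with ATlo asks which genes differ between cells of high and low flux. Of the 46 replication genes, 43 fell in AThi, 0 rose and 3 did not pass, and 0 were higher at an unadjusted p under 0.05. The test was limma on log2(FPKM + 0.5) over 11397 genes, with a threshold of a Benjamini-Hochberg adjusted p of 0.05. By that rule 29.4% of the genes tested were lower in AThi and 22.2% higher, 51.6% in all. That balance depends on the scaling: 3355 genes were lower and 2529 higher as deposited, 3056 and 2828 under TPM scaling, and 2903 and 3039 under median scaling, while 43 members fell under each. The median log2 fold change (AThi minus ATlo) was -1.35 over the 46 genes and -0.03 over all genes tested. A fall of at least 2-fold on this log2 scale was called in 34 members, against 4.17% of the genes tested. In 44 of 46 members both AThi values lay below the 3 ATlo values, which held for 38.4% of the genes tested; the opposite order held for 31.9% of them and for none of the members. The 46 genes together made up 0.112 and 0.103% of the summed FPKM in AThi and 0.235 to 0.271% in ATlo. In sorted bulk samples, fewer cells in S phase and less transcript in each cell cannot be told apart.

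**Figure D1:**
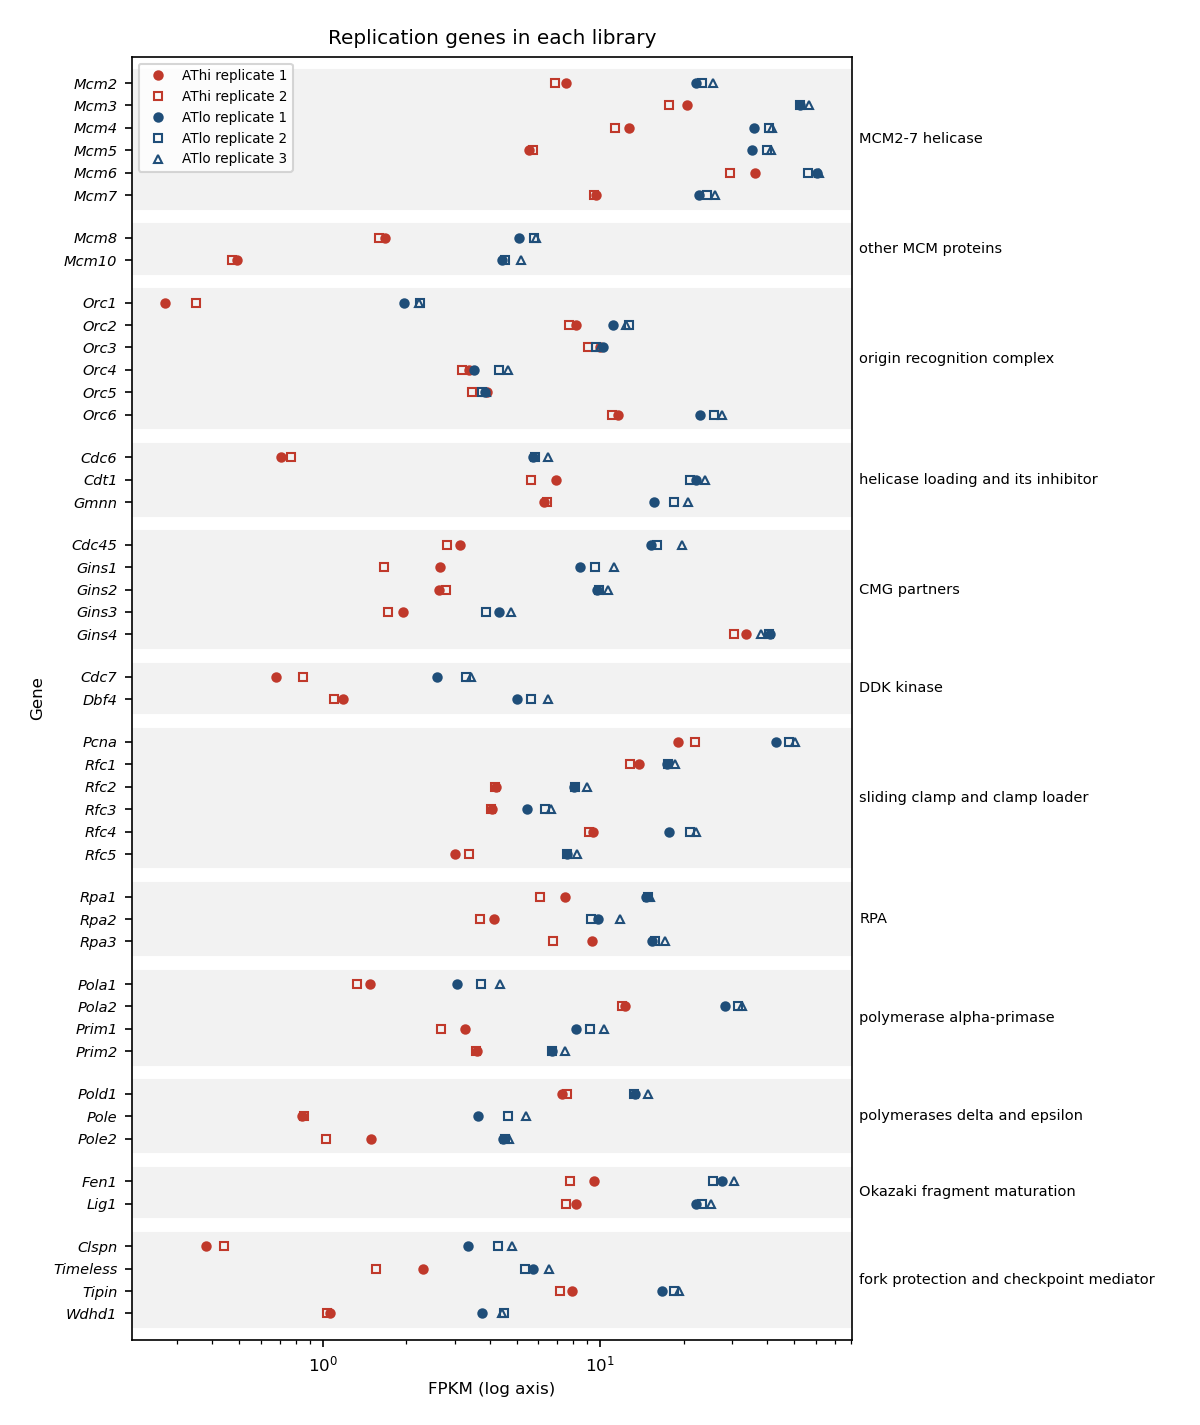
FPKM of the 46 replication genes in each of the 5 libraries, on a log axis, grouped by complex; red symbols are the AThi libraries and blue symbols the ATlo libraries. Red and blue are apart for 44 genes and overlap for Orc3 and Orc5.

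**Figure D2:**
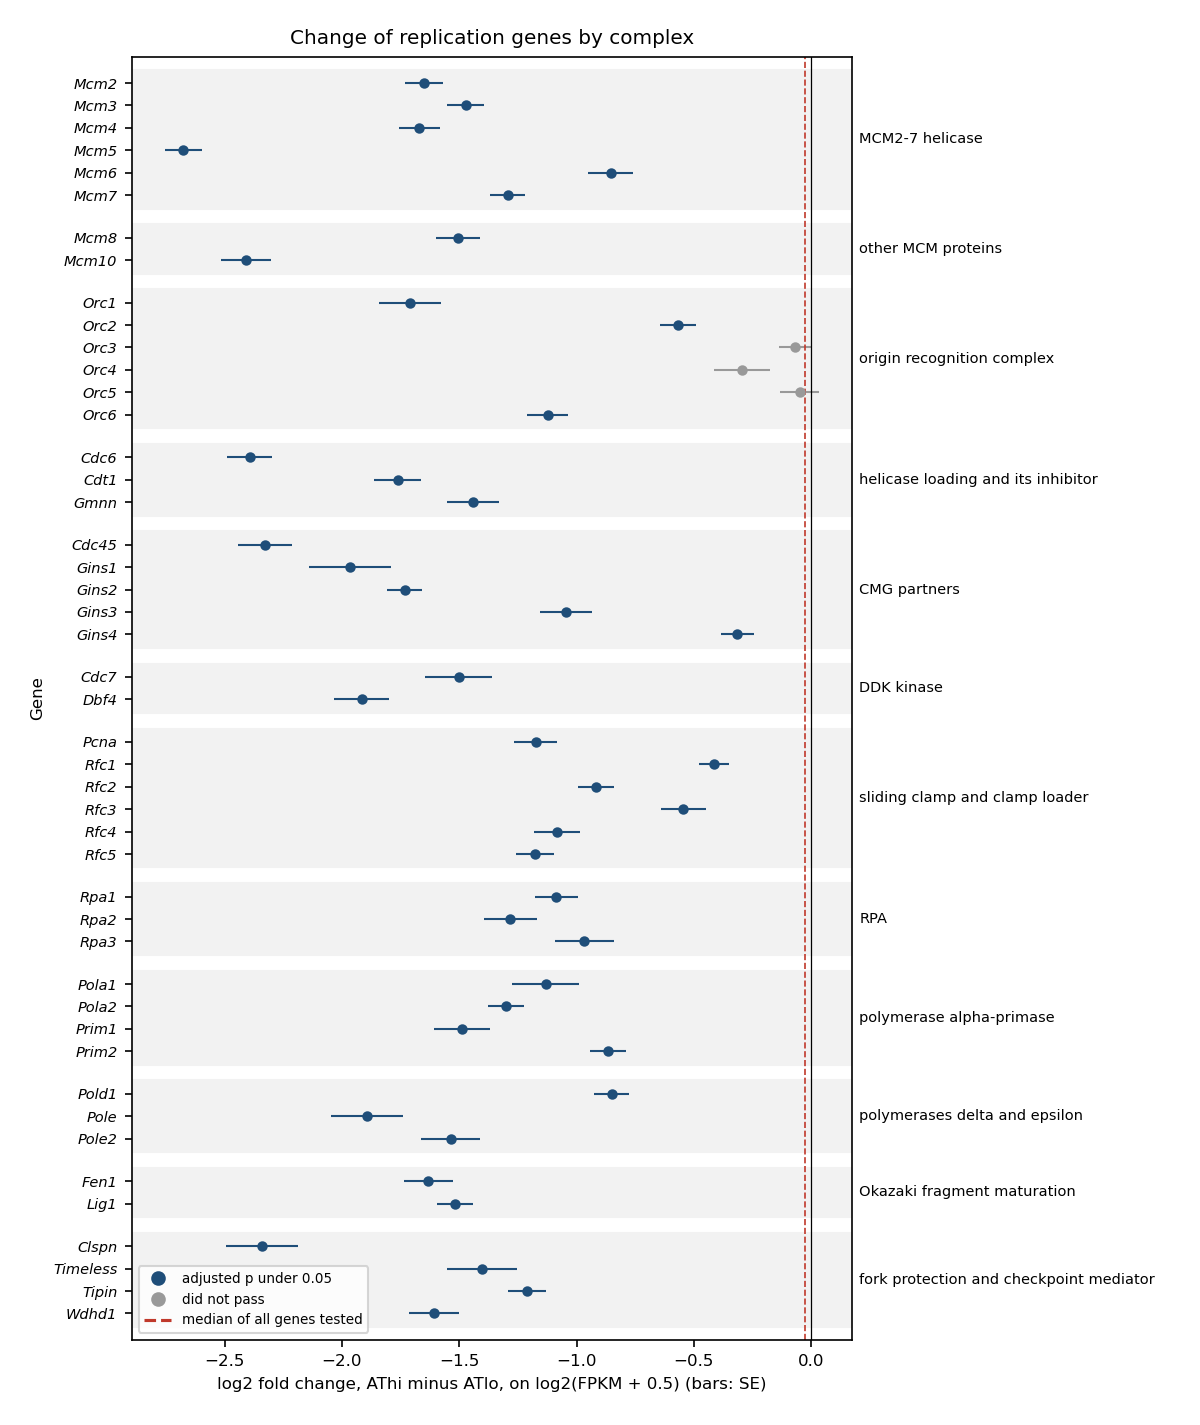
Log2 fold change (AThi minus ATlo, on log2(FPKM + 0.5)) with its standard error for each replication gene, by complex; blue points passed an adjusted p of 0.05, grey points did not, and the dashed line is the median of all genes tested (-0.03). Mcm5 lies farthest left at -2.68, and the grey points are Orc3, Orc4 and Orc5.

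Promoter sequence, which the choice of genes by symbol did not use, was read to describe what the members share. RefSeq windows of 300 bases (250 before and 50 after the start site, GRCm38.p6) were listed for 37 of the 46 genes. The windows were searched on both strands for 4 words of 8 bases of the E2F site, TTTGGCGC, TTTCCCGC, TTTGCCGC and TTTCGCGC, which can overlap one another. At least 1 word stood in a window of 16 of the 37 genes, and in 16 of their 45 windows (35.6%). Over all 32851 windows the share was 2.26%, and over the 8587 tested genes with a window 4.86% held a word. Mcm5 and Mcm6 are shown, since they had the largest and the smallest fall of the helicase subunits and both have words upstream of the start site. The 160 bases before each start site follow, 5′ to 3′ on the gene's strand, with the E2F words in capitals. The Mcm5 stretch is chr8:75109349-75109508 on the plus strand and the Mcm6 stretch chr1:128359706-128359865 on the minus strand. Overlapping words appear as 1 longer run of capitals.
Mcm5: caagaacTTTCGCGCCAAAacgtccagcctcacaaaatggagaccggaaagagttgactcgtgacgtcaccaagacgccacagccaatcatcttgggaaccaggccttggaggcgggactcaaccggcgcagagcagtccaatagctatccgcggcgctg
Mcm6: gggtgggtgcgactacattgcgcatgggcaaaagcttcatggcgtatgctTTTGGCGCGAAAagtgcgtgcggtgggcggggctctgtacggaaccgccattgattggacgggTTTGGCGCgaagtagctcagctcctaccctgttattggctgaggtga

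Mcm5 held 2 overlapping words, 153 and 149 bases before the start site, and Mcm6 held 3, at 110, 106 and 47 bases. The Mcm6 words at 110 and 106 bases overlap as well. These 2 genes were chosen for their falls, and a relation of word count to fall was not tested. For 8 further members the 26 bases around the first word are shown. They set genes of licensing, fork protection and Okazaki fragments beside Orc3, which holds a word and did not pass the test. Other members with a word are not shown, among them Rfc3 and Pold1, with log2 fold changes of -0.55 and -0.85. GCGGGAAA and GCGCGAAA are the words TTTCCCGC and TTTCGCGC read from the other strand.
Cdc6: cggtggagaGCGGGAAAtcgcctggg
Cdt1: aactaccttTTTGGCGCcatggcgca
Orc1: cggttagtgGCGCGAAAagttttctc
Orc3: atgcctcccTTTCCCGCacgccccgc
Mcm3: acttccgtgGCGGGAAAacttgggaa
Mcm7: tttcgaaccGCGGGAAAcagggtgtc
Clspn: cgcgtctggGCGCGAAAgctcgaact
Lig1: ccaaagtgcGCGCGAAAtctgtgtgg

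The Cdc6 site is chr11:98908004-98908029 (plus strand), the Cdt1 site chr8:122568038-122568063 (plus), the Orc1 site chr4:108579418-108579443 (plus), and the Orc3 site chr4:34614967-34614992 (minus). The Mcm3 site is chr1:20820277-20820302 (minus), the Mcm7 site chr5:138172032-138172057 (minus), the Clspn site chr4:126556992-126557017 (plus) and the Lig1 site chr7:13278843-13278868 (plus). The Cdt1, Mcm3, Clspn and Lig1 words lie just after the start site and the others before it. The 16 members with a word had a median log2 fold change of -1.49, with a range of -2.68 to -0.07. The 21 members with a window and no word, among them Mcm2, Mcm10, Cdc45 and Pcna, had a median of -1.28, with a range of -2.41 to -0.05. The ranges of these members overlapped almost whole. Other forms of the E2F site and sites outside the windows were not searched. A member without a word may therefore still have a site. The word CCAAT, bound by NF-Y, stood in 22 of the 37 genes (59.5%, against 43.1% of the tested genes with a window), or 24 of 45 windows (53.3%, against 37.4% of all windows). The CHR word TTTGAA stood in 6 of the 37 genes (16.2%, against 14.0% of the tested genes with a window), or 7 of 45 windows (15.6%, against 17.9% of all windows). These matches describe letters in a window and are no evidence of binding.

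The MCM2-7 ring is the core of the replicative helicase. All 6 subunit genes fell, with adjusted p-values of 2.52e-05 to 0.00055. Library values below are given for AThi replicates 1 and 2 and then for ATlo replicates 1 to 3. Mcm5 was at 5.55 and 5.73 FPKM against 35.42, 39.82 and 41.20 FPKM, so that AThi held 14.5% of the ATlo mean. The log2 fold change was -2.68 ± 0.08 (SE), the largest of the 46 genes on this scale. With a pseudocount of 0.1, Mcm10 (-3.05), Clspn (-3.05) and Cdc6 (-2.86) exceeded Mcm5 (-2.76), as the same 3 genes did under TPM scaling. Mcm6 was at 36.06 and 29.41 FPKM against 60.33, 56.16 and 61.66 FPKM, with 55.1% of the ATlo mean and a log2 fold change of -0.86 ± 0.10 (SE). The groups did not overlap for either gene, but the AThi libraries held far more Mcm6 than Mcm5 transcript per length. Mcm5 lies on chromosome 8 (75109569 to 75128439, plus strand) and Mcm6 on chromosome 1 (128331590 to 128359664, minus strand) of GRCm38.

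The other 4 subunits lay between these extremes. Mcm2, which carries a histone-binding tail, was at 7.54 and 6.86 FPKM against 22.19, 23.33 and 25.48 FPKM. Mcm4 was at 12.75 and 11.29 FPKM against 35.95, 40.47 and 41.68 FPKM. Their log2 fold changes were -1.65 ± 0.08 and -1.67 ± 0.09 (SE), and both genes kept about the same share of the ATlo mean, 30.4 and 30.5%. Mcm3 was at 20.51 and 17.73 FPKM against 52.50, 52.69 and 56.45 FPKM, a change of -1.47 ± 0.08 (SE). Mcm7 was at 9.70 and 9.52 FPKM against 22.66, 24.33 and 25.97 FPKM, a change of -1.29 ± 0.07 (SE). In each of these genes the highest AThi value was under the lowest ATlo value.

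The proportions of the 6 subunit transcripts differed between the groups. Mcm5 made up 6.03 and 7.11% of the summed MCM2-7 FPKM in AThi and 15.5, 16.8 and 16.3% in ATlo. Mcm6 made up 39.1 and 36.5% in AThi and 26.3, 23.7 and 24.4% in ATlo. The ratio of Mcm6 to Mcm5 was accordingly 6.5 and 5.13 in AThi and 1.70, 1.41 and 1.5 in ATlo. Mcm3 kept a nearly constant share, 22 to 22.9% over the 5 libraries. These ratios are scale-free within a library and were not tested.

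**Figure D3:**
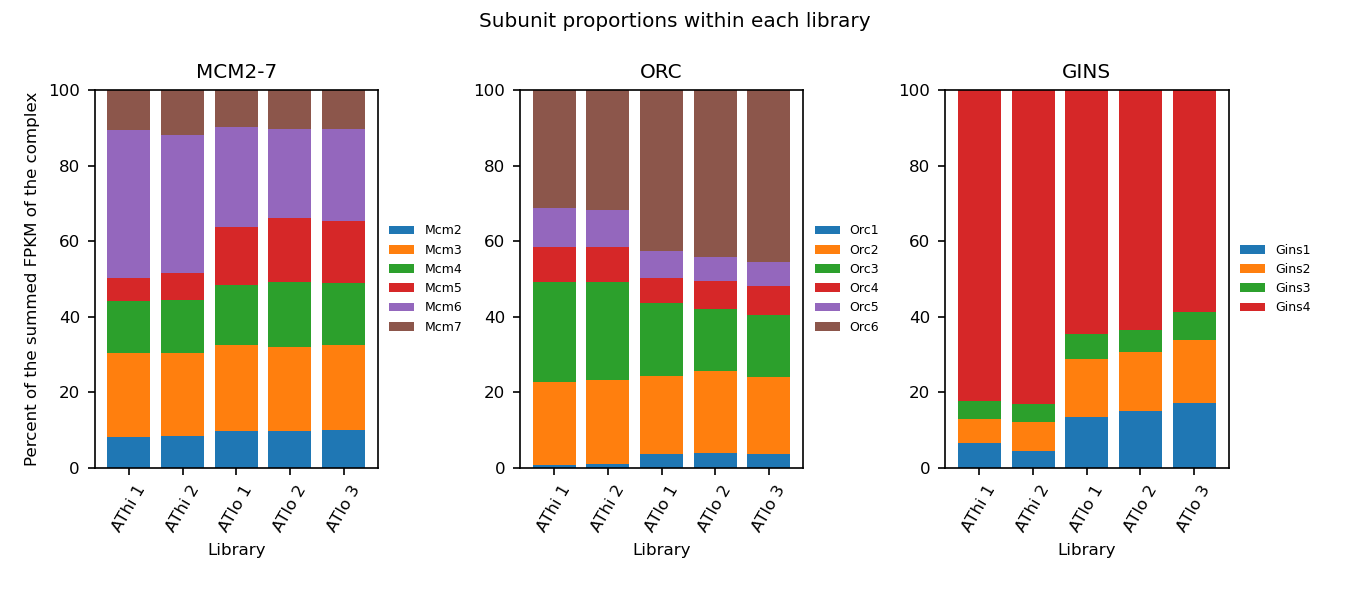
Each bar is 1 library and each colour 1 subunit, as percent of the summed FPKM of MCM2-7 (left), ORC (middle) and GINS (right). In AThi the shares of Mcm5, Orc1, Orc6, Gins1 and Gins2 are smaller and those of Mcm6, Orc3 and Gins4 larger than in ATlo.

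Both MCM genes outside the ring fell. MCM10 joins the helicase as it is activated, and MCM8 acts with MCM9 in homologous recombination. Mcm10 was at 0.49 and 0.47 FPKM against 4.45, 4.53 and 5.18 FPKM, so that AThi held 10.2% of the ATlo mean (log2 fold change -2.41 ± 0.11, SE). Mcm8 was at 1.68 and 1.60 FPKM against 5.09, 5.80 and 5.86 FPKM (-1.51 ± 0.09, SE). The groups were far apart for both. Mcm9, the partner of Mcm8, went the other way in level, at 1.98 and 2.11 FPKM against 1.65, 1.66 and 1.51 FPKM, but did not pass (limma adjusted p = 0.0669).

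The origin recognition complex was split. ORC1 to ORC5 form a ring at origins, ORC1 being the subunit whose protein is known to be destroyed after each round of licensing, and ORC6 is the sixth subunit. Orc1, Orc2 and Orc6 fell, and Orc3, Orc4 and Orc5 did not pass. Orc1 was at 0.27 and 0.35 FPKM against 1.97, 2.25 and 2.22 FPKM, 14.4% of the ATlo mean (log2 fold change -1.71 ± 0.13, SE; adjusted p = 0.000137). Orc6 was at 11.65 and 11.06 FPKM against 22.85, 25.79 and 27.51 FPKM (-1.12 ± 0.09, SE), and Orc2 at 8.19 and 7.76 FPKM against 11.14, 12.70 and 12.40 FPKM (-0.57 ± 0.08, SE). The groups were separate for these genes, with a far smaller gap for Orc2.

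Orc3 was at 9.96 and 9.04 FPKM in AThi and 10.27, 9.67 and 9.97 FPKM in ATlo, so its groups overlapped (-0.07 ± 0.07, SE; adjusted p = 0.453). Orc5 overlapped as well, at 3.91 and 3.46 FPKM against 3.86, 3.75 and 3.87 FPKM (-0.05 ± 0.08, SE; adjusted p = 0.643). The sign of the Orc5 value turned to 0.01 when libraries were scaled to a common median and to 0.03 without AThi replicate 2. Orc4 was at 3.38 and 3.18 FPKM against 3.50, 4.34 and 4.65 FPKM (-0.30 ± 0.12, SE; adjusted p = 0.0785), with AThi just below ATlo replicate 1. Without ATlo replicate 1 the Orc4 change was -0.40 and passed, with a limma adjusted p of 0.0136. Missing the threshold does not show that these genes were equal in both groups.

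Relative to Orc3, Orc1 transcript was scarce in AThi. The ratio of Orc3 to Orc1 was 36.9 and 25.8 in AThi and 5.21, 4.30 and 4.49 in ATlo. Orc1 held 0.723 and 1.0% of the summed ORC FPKM in AThi and 3.66 to 3.85% in ATlo, the lowest share of the 6 subunits in each library. Orc6 held the largest share, 31.2 and 31.7% in AThi and 42.6 to 45.4% in ATlo. Orc1 lies on chromosome 4 (108579423 to 108614833, plus strand), and Orc3 on the same chromosome (34570796 to 34614944, minus strand).

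The helicase loaders CDC6 and CDT1 and the CDT1 inhibitor geminin fell together. Cdc6 was at 0.71 and 0.77 FPKM against 5.72, 5.85 and 6.5 FPKM, 12.3% of the ATlo mean (-2.39 ± 0.10, SE). Cdt1 was at 6.94 and 5.62 FPKM against 22.26, 21.17 and 23.84 FPKM (-1.76 ± 0.10, SE). Gmnn, the geminin gene, was at 6.29 and 6.44 FPKM against 15.69, 18.41 and 20.70 FPKM (-1.44 ± 0.11, SE). The AThi values lay below the ATlo values in all 3 genes. CDT1 and geminin proteins mark opposite phases of the cycle, and their transcript ratio (Cdt1 over Gmnn) was 1.10 and 0.873 in AThi and 1.42, 1.15 and 1.15 in ATlo. The ratio was thus lower in both AThi libraries, by a small margin in replicate 1.

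CDC45 and the 4 GINS subunits complete the CMG helicase, and their genes fell by very different amounts. Cdc45 was at 3.12 and 2.82 FPKM against 15.29, 16.02 and 19.67 FPKM (-2.33 ± 0.11, SE). Gins1 and Gins2 fell by less than Cdc45, with log2 changes of -1.97 ± 0.17 and -1.73 ± 0.07 (SE), and Gins3 changed by -1.05 ± 0.11 (SE). Gins2 lay at 2.62 to 2.78 FPKM in AThi and 9.74 to 10.72 FPKM in ATlo, and Gins3 at 1.72 to 1.95 FPKM in AThi and 3.87 to 4.78 FPKM in ATlo. Gins1 was at 2.65 and 1.67 FPKM against 8.50, 9.61 and 11.20 FPKM. Gins4 stood apart in level and in change, at 33.54 and 30.31 FPKM against 40.90, 40.55 and 37.98 FPKM (-0.32 ± 0.07, SE; adjusted p = 0.00948). Without AThi replicate 2 its change was -0.24 and missed the threshold, with a limma adjusted p of 0.0612. Gins4 held 82.3 and 83.1% of the summed GINS FPKM in AThi and 58.7 to 64.4% in ATlo, although the 4 proteins form a complex of 1 copy each. Gins4 lies on chromosome 8 (23226616 to 23237659, minus strand), and no annotated gene shared 10% or more of its exonic bases. No source used here gives the gene lengths behind the deposited FPKM, and their part in the high level and share of Gins4 was not tested.

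DDK consists of the kinase CDC7 and its activator DBF4 and phosphorylates loaded MCM rings. Dbf4 was at 1.19 and 1.10 FPKM against 5.02, 5.66 and 6.52 FPKM (-1.92 ± 0.12, SE). Cdc7 was at 0.68 and 0.85 FPKM against 2.58, 3.29 and 3.42 FPKM (-1.50 ± 0.14, SE). Both genes fell, and AThi held 20.0 and 24.7% of the respective ATlo means.

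PCNA is the sliding clamp that holds polymerases on DNA, and RFC1 to RFC5 form its loader. All 6 genes fell. Their median change was -1.0 on the log2 scale, beside -1.56 for the helicase subunits. Pcna was at 19.16 and 22.01 FPKM against 42.99, 47.91 and 50.32 FPKM (-1.17 ± 0.09, SE). Pcna has annotated pseudogene copies, so its level is uncertain where reads map to several places. Rfc5 was at 3.01 and 3.36 FPKM against 7.59, 7.61 and 8.28 FPKM (-1.18 ± 0.08, SE). Rfc1, the large subunit that is particular to the PCNA loader, was at 13.76 and 12.85 FPKM against 17.48, 17.58 and 18.65 FPKM (-0.41 ± 0.07, SE; adjusted p = 0.00219). Rfc4, Rfc2 and Rfc3 changed by -1.08 ± 0.10, -0.92 ± 0.08 and -0.55 ± 0.10 (SE). Rfc4 lay at 9.16 to 9.43 FPKM in AThi and 17.78 to 22.13 FPKM in ATlo, and Rfc3, with the smallest change of these, at 4.03 to 4.07 FPKM in AThi and 5.45 to 6.68 FPKM in ATlo. The small subunits RFC2 to RFC5 also serve other clamp loaders. The ratio of Rfc1 to Rfc4 was 1.46 and 1.40 in AThi and 0.833 to 0.983 in ATlo.

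RPA coats single-stranded DNA in replication and repair. Its 3 genes fell. Rpa2 was at 4.16 and 3.69 FPKM against 9.87, 9.24 and 11.82 FPKM (-1.28 ± 0.11, SE), and Rpa3 at 9.32 and 6.79 FPKM against 15.35, 15.76 and 17.08 FPKM (-0.97 ± 0.13, SE). Rpa1, the large DNA-binding subunit, lay at 6.07 to 7.48 FPKM in AThi and 14.66 to 15.12 FPKM in ATlo and changed by -1.09 ± 0.09 (SE). AThi held 38.1 to 50.1% of the ATlo means of the 3 genes.

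DNA polymerase alpha with its primase starts each new strand, and polymerases epsilon and delta extend the leading and lagging strands. Of the 4 polymerase alpha-primase genes 4 fell, with Prim1 at 3.25 and 2.68 FPKM against 8.16, 9.17 and 10.35 FPKM (-1.49 ± 0.12, SE). Prim2 changed least, at 3.60 and 3.57 FPKM against 6.70, 6.72 and 7.46 FPKM (-0.87 ± 0.08, SE). Pola1, the catalytic subunit, lay at 1.33 to 1.48 FPKM in AThi and 3.05 to 4.35 FPKM in ATlo, and the accessory subunit gene Pola2 at 11.96 to 12.32 FPKM in AThi and 28.15 to 32.49 FPKM in ATlo. They changed by -1.13 ± 0.14 and -1.30 ± 0.08 (SE). The Pola2 transcript exceeded Pola1 by 7.47 to 9.23 times in FPKM over the 5 libraries, a ratio that overlapped between the groups.

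The polymerase epsilon genes Pole and Pole2 and the polymerase delta gene Pold1 fell. Pole, the catalytic subunit, was at 0.84 and 0.86 FPKM against 3.64, 4.65 and 5.40 FPKM (-1.89 ± 0.15, SE), and Pole2 lay at 1.03 to 1.5 FPKM in AThi and 4.47 to 4.70 FPKM in ATlo (-1.54 ± 0.13, SE). Pold1 was at 7.27 and 7.62 FPKM against 13.38, 13.27 and 14.86 FPKM (-0.85 ± 0.07, SE). The ratio of Pold1 to Pole was 8.65 and 8.86 in AThi and 3.68, 2.85 and 2.75 in ATlo, without overlap. FEN1 and LIG1 trim and seal Okazaki fragments. Fen1 was at 9.49 and 7.82 FPKM against 27.52, 25.63 and 30.28 FPKM (-1.63 ± 0.10, SE) and Lig1 at 8.21 and 7.55 FPKM against 22.14, 23.34 and 25.05 FPKM (-1.52 ± 0.08, SE). In both genes AThi held about the same part of the ATlo mean, 31.1 and 33.5%.

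Claspin, TIMELESS and TIPIN stabilise forks and relay the ATR checkpoint signal, and WDHD1 (AND-1) links the helicase to polymerase alpha. Clspn was at 0.38 and 0.44 FPKM against 3.35, 4.28 and 4.82 FPKM (-2.34 ± 0.15, SE), and its 9.88% of the ATlo mean was the lowest share kept by any of the 46 genes. Tipin was at 7.92 and 7.20 FPKM against 16.78, 18.48 and 19.19 FPKM (-1.21 ± 0.08, SE). Timeless lay at 1.56 to 2.31 FPKM in AThi and 5.37 to 6.55 FPKM in ATlo and Wdhd1 at 1.04 to 1.06 FPKM in AThi and 3.77 to 4.50 FPKM in ATlo. They changed by -1.40 ± 0.15 and -1.61 ± 0.11 (SE). TIMELESS and TIPIN proteins work as a pair, and their transcripts kept 32.9 and 41.7% of the ATlo means.

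The level in ATlo was set beside the share kept in AThi. Across the 46 genes the Spearman correlation of the ATlo mean with the percent kept in AThi was 0.243, given as a description across genes that share libraries. The ATlo mean is also the divisor of that percent, so the value does not measure how closely level and change are related. The 5 members called at least 4-fold lower on the log2(FPKM + 0.5) scale were Mcm5, Mcm10, Cdc6, Clspn and Cdc45. That count depends on the scale: it was 9 with a pseudocount of 0.1 and 3 with a pseudocount of 1, and the ratio of the mean FPKM was at least 4-fold in 11 called members, among them Orc1, Pole, Dbf4, Gins1, Cdc7 and Wdhd1. No share of all genes tested was taken at a 4-fold cut, so these counts only describe the members. At the other end, Orc5, Orc3, Gins4, Orc4 and Rfc1 kept 74.3 to 96.3% of their ATlo means.

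Of 44 other replication genes, 42 reached the mean of 1 FPKM needed for the test. In AThi 35 of them fell, 0 rose by limma (2 at an unadjusted p under 0.05) and 7 missed the threshold. Over all genes tested, 29.4% fell and 22.2% rose. The median over the 42 was -0.79 on the log2 scale. The largest falls on the log2(FPKM + 0.5) scale were in Pif1, a fork helicase, in Lrr1, which serves the removal of the replisome, in Chtf18, of an alternative clamp loader, and in the cyclin gene Ccne1. Pif1 changed by -2.38 ± 0.20, Lrr1 by -2.31 ± 0.15, Chtf18 by -2.08 ± 0.12 and Ccne1 by -2.05 ± 0.11 (SE). In AThi, Pif1 was at 0.15 and 0.22 FPKM and Lrr1 at 0.15 and 0.25 FPKM. The level of 3 reads per kilobase in these libraries is 0.109 and 0.0668 FPKM, so the size of these falls is uncertain. By the ratio of mean FPKM, Ticrr (7.73-fold), Traip (6.15-fold) and Recql4 (5.83-fold) also lay above Chtf18 (5.44-fold). Ticrr was likewise low in AThi, at 0.21 and 0.31 FPKM. The 5 origin firing factors Ticrr, Mtbp, Topbp1, Recql4 and Donson fell, with a median of -1.29. Accessory polymerase subunits changed less, with a median of -0.38: Pold2 changed by -0.81 ± 0.06 (SE), and Pold4 did not pass. Among checkpoint genes Chek1 fell (-1.66 ± 0.12, SE), whereas Atr was at 2.03 ± 0.06 FPKM (SD, n = 2) and 2.01 ± 0.22 FPKM (SD, n = 3) and did not pass (limma adjusted p = 0.937). Mcm9, Rad17, Cul4a, Rad1 and Ubxn7 also missed the threshold. Dscc1 and Atrip were below the filter.

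Some members share promoter regions with a gene on the other strand. In the GENCODE M21 annotation of GRCm38, 15 members had a protein-coding gene on the opposite strand starting within 1000 bases of their own start, and 15 of these 16 neighbours were tested. Of the 15 members 13 fell, while 4 of the 15 neighbours fell, 1 rose and 10 did not pass, a share of falls (26.7%) close to the 29.4% over the genes tested. The median log2 fold change was -1.61 for the members and -0.15 for the neighbours, and 14 of 15 neighbours had a higher log2 fold change than their member. The median over all genes tested was -0.03, so that count mainly restates the fall of the members.

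Mcm4 and Prkdc, the gene of the DNA-PK catalytic subunit, start 466 bases apart. Prkdc was at 2.46 and 2.33 FPKM against 2.30, 2.59 and 2.94 FPKM and did not pass (-0.10 ± 0.11, SE), beside the fall of Mcm4. The starts of Cdc45 and Ufd1 lie 208 bases apart in overlapping genes, and Ufd1 was at 14.88 and 13.89 FPKM against 14.69, 14.94 and 15.07 FPKM (-0.05 ± 0.06, SE). Orc1 and Prpf38a start 87 bases apart, and Prpf38a fell by a smaller amount than Orc1 (-0.49 ± 0.08, SE). Trmt6, beside Mcm8, was the neighbour with the largest fall (-0.55 ± 0.10, SE). The difference within a pair was not tested.

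**Figure D4:**
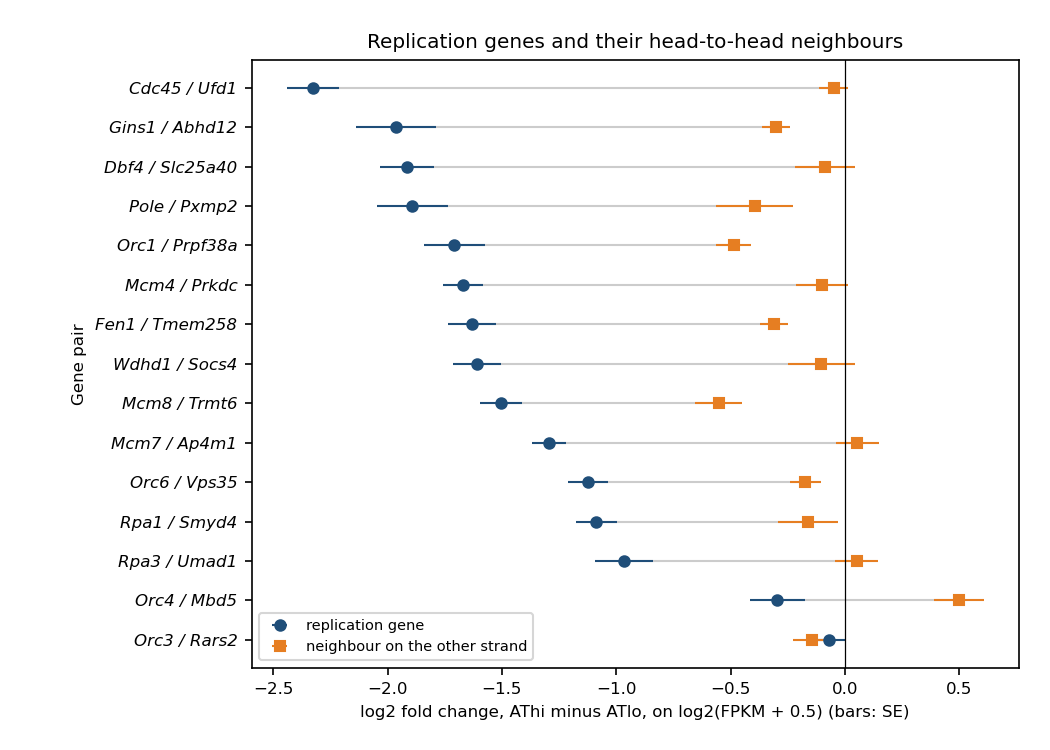
Log2 fold change (AThi minus ATlo, on log2(FPKM + 0.5)) with its standard error of 15 replication genes (circles) and of the tested neighbour that starts within 1000 bases on the other strand (squares). The neighbours lie between -0.55 (Trmt6) and 0.50 (Mbd5), right of their member in 14 of 15 pairs; the exception is Orc3 with Rars2.

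Exon overlap makes some member values uncertain, since the strand setting of the counting is not given in the sources used here. Of the exonic bases of Gins2 67.3% lie opposite exons of Gse1, which was at 10.48 and 12.87 FPKM against 10.78, 11.33 and 10.45 FPKM and did not pass. For Orc2 29.8% lie opposite Nif3l1, which changed by -0.31 ± 0.07 (SE). For Rfc4 12.7% lie opposite Eif4a2, an abundant gene that rose (0.46 ± 0.06, SE). The antisense gene Gm10143 covers 78.8% of the exonic bases of Fen1 and was at 0.01 to 0.04 FPKM. For Rfc2 15.1% of the exonic bases lie opposite another gene, for Orc1 10.8% and for Rfc5 10.7%.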

How the data were processed

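The 2 AThi and 3 ATlo libraries were made with a kit for stranded mRNA, per the labels' protocols. The authors deposited FPKM values in 1 table with 2 decimals. Per the submitters' processing notes, the tools were STAR, featureCounts, DESeq2 and bcl2fastq and the build GRCm38 (mm10). Tool versions, annotation, strand setting and multimapping: not given in the sources used here. Library columns were matched to samples by the code in each title. The 11397 genes whose mean reached 1 FPKM entered limma 3.58.1 (R 4.3.3; lmFit, eBayes with trend, two-sided, group as the only term) on log2(FPKM + 0.5), which understates changes of low genes, with Benjamini-Hochberg adjustment over these genes. The fit was tried on simulated data in which few genes changed, unlike these data, so that run does not check the calls made here. Members and lists were chosen with earlier results of these data known. Library values were given for the largest and smallest change of each group, for members that missed the threshold, and for MCM2-7, ORC, the helicase loaders, Gmnn and Pcna; of the other replication genes the 4 largest changes were named. Genes named beyond this rule, the gene pairs and the ratios were chosen after their values were seen. Depth was read from single-exon genes of up to 200 bases, whose FPKM multiplied by length were whole multiples of what 1 read is worth (tolerance 0.1, 100% whole). Levels are relative within a library. Promoter sequences are from RefSeq (GRCm38.p6) and positions from GENCODE M21. Alternatives were another pseudocount, filter, scaling or variance model, a replicate block, and leaving out each library.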

Additional observations from a re-analysis of the deposited data

How the results depend on the processing

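Under 14 alternative fits, 42 of the 43 replication genes that fell kept their call in every fit they entered, the exception being Gins4. The count that fell was 43 in 11 of these fits, 42 without AThi replicate 2, 44 without ATlo replicate 1, and 30 of 31 tested with a minimum mean of 5 FPKM; 0 rose in any of them. With that filter the median of the tested members moved from -1.35 to -1.21 and the other replication genes that fell from 35 to 18, as only 31 and 21 genes were tested. Among the other replication genes, 2 rose under median scaling, 1 in eBayes without trend, 1 without ATlo replicate 3 and 1 with the replicate block. Leaving out 1 library gave 0 to 1 such rises. Orc5 turned sign under median scaling (0.0050) and without AThi replicate 2 (0.028); its log2 fold change ranged from -0.13 to 0.028 with 1 library left out. Replicate numbers are shared between the groups for 2 pairs only. The titles of each pair also share the leading digits of a code, and no label says what number or code marks. Deviations from the group means correlated at 0.20 and 0.30 across genes for same-numbered libraries. With 2 AThi libraries these deviations are mirror images. AThi replicate 2 with ATlo replicate 1 therefore gave -0.20, and AThi replicate 1 with ATlo replicate 2 gave -0.30. The positive values are thus not separate signs of pairing. With the replicate block, 43 members fell (5909 genes were called, against 5884), and no member changed its call. ATlo replicate 3 has no partner in that fit and adds nothing to its fold changes. Their median over the members, -1.30, is that of the fit without ATlo replicate 3. Only 1 residual degree of freedom remained, so the block fit is no separate check on all 5 libraries. With 1 AThi library left out, the remaining one is assumed to vary like those of ATlo. The lowest member value was 0.27 FPKM, for Orc1, above the level of 3 reads per kilobase.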

Other observations

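The members moved together between libraries of one group as well. ATlo replicate 3 had the highest of the ATlo values in 41 of the 46 replication genes, against 35.8% of all genes tested. ATlo replicate 1 had the lowest in 36, a count for which no share of all genes tested was taken. AThi replicate 1 was above AThi replicate 2 in 35 of the 46, against 52.5% of all genes tested. Among the other replication genes ATlo replicate 3 was the highest ATlo library in 33 of 44 and AThi replicate 1 was above replicate 2 in 31 of 44. The members share their libraries and are not independent of one another. The immediate-early genes had their lowest summed level, 1103 FPKM, in ATlo replicate 3, and in AThi they were lower in replicate 1 (3522 FPKM) than in replicate 2 (5535 FPKM). The order of the libraries in the replication genes was thus the reverse of their order in the immediate-early genes within AThi and at ATlo replicate 3, but not between ATlo replicates 1 and 2, which had 1479 and 1816 FPKM. With 2 and 3 libraries this was not tested.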
